A study of Mus musculus with 8 samples.

Results

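SREBP2, encoded by Srebf2, is the transcription factor that drives cholesterol synthesis, and 7 genes of its pathway were followed in mouse pancreatic islets: Srebf2 itself, the synthesis enzymes Hmgcs1, Idi1, Fdft1, Sqle and Lss, and the retention protein gene Insig1. They are 7 of the 24469 genes in the deposited tables. Srebf2 was chosen because its level was lower in the knockout libraries, and the 6 others because they are known targets of SREBP2, to see whether they followed it. The Srebf2 difference is therefore given as a description with no test. Of the 6 targets, 5 had counts, and none of these 5 passed the test between genotypes. Only 2 of 13617 genes tested, or 0.0147%, passed it, so the test does not decide whether the targets followed Srebf2.

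RNA was sequenced from islets, the clusters of insulin-secreting and other hormone cells of the pancreas, picked by hand from mice at 8 weeks of age. The 4 wild-type libraries came from C57BL/6 mice. The 4 knockout libraries came from mice on the C57BL/6 background without the function of U32a, U33, U34 and U35a, the snoRNAs held in introns of Rpl13a. Both groups were otherwise untreated as far as the labels say.

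When cholesterol in the endoplasmic reticulum is scarce, the escort protein SCAP carries the SREBP2 precursor to the Golgi, where the proteases encoded by Mbtps1 and Mbtps2 release its active part. When sterols are plentiful, INSIG proteins hold SCAP back. The released factor binds sterol regulatory elements in the promoters of the synthesis enzymes, of Insig1 and of Srebf2 itself. Its activity is thus set by processing of the protein as well as by the amount of its messenger RNA, and only the latter was measured here. In beta cells, membrane cholesterol is known to affect insulin secretion.

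RefSeq promoters of GRCm38.p6 were on hand for 5 of the 7 members, Srebf2, Insig1, Hmgcs1, Idi1 and Lss, matched by symbol. The 250 bases before the start were searched on both strands for the sterol regulatory element core TCACNCCA, the CCAAT box CCAAT, bound by NF-Y, the Sp1 box GGGCGG and the E-box CACGTG. The core stood in the Srebf2 promoter, 162 bases before the start, and in the Hmgcs1 promoter, 137 bases before it. It was in 3.67% of all 32851 promoters of this length. The CCAAT box stood in all 5 promoters, against 33.8% of all promoters, and the Sp1 box also in all 5, against 32.7%. The E-box was in the Insig1 promoter, 101 bases before the start, and in 6.02% of all promoters. With up to 1 mismatch the core was also found for Insig1, but then 52.4% of all promoters held it. A match is a string of letters, not evidence of binding. Shown here are the regulator with its own element, a target with the same core and the feedback target without it, all in lower case with the core and CCAAT boxes of either strand in capitals.
Srebf2 (chr15:82147019-82147268, plus strand): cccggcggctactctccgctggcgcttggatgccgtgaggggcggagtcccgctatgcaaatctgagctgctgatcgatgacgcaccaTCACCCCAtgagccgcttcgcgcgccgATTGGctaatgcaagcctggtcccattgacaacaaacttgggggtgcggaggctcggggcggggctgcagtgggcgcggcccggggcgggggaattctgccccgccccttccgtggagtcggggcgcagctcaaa
Hmgcs1 (chr13:119690101-119690350, plus strand): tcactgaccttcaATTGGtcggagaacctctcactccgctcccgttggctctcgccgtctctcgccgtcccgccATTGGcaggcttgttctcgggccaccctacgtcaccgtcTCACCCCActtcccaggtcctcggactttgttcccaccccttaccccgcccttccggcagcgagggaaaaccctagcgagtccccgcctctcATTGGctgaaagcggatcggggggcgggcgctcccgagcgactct
Insig1 (chr5:28071162-28071411, plus strand): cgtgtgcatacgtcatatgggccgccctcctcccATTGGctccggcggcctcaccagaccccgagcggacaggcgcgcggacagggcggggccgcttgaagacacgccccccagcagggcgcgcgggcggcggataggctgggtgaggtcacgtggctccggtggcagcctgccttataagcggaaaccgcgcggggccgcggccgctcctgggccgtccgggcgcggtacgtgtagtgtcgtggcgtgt

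Assigned counts, of which 36.7 to 41.3% lay on the ribosomal RNA gene Rn45s, ranged from 21235200 to 41148300 per library. Beta-cell markers (10 of 10 listed genes, led by Ins2, Ins1 and Iapp) took 10.03 to 24.0% of them in wild type (mean 18.3 ± 5.99%) and 8.65 to 16.3% in knockout (11.5 ± 3.46%). Acinar markers, of the digestive-enzyme cells around the islets, took 2.03 to 26.2% in wild type and 5.31 to 27.8% in knockout (exact two-sided permutation p = 0.400, over 30 of 31 listed genes), with no listed gene at 0 throughout. Knockout replicate 2 stood apart by hepatocyte markers: all 8 listed genes, led by Alb, Apob and Apoa1, summed to 6275 unscaled CPM (the share of the library's counts, here 0.627%) there, against 6.76 to 11.3 in the wild-type libraries and 8.74 to 17.0 in the other 3 knockout libraries. Reads of the targeted snoRNAs came to 15 in wild type, 9 of Snord32a and 6 of Snord33, and to 0 in knockout, a count that allows up to 3. Snord34 and Snord35a were at 0 in all 8 libraries, so the labels could not be checked by them. In edgeR's quasi-likelihood test 2 of 13617 genes passed a false discovery rate (FDR) of 0.05, or 0.0147%, 2 higher and 0 lower, and 18.7% had an unadjusted p under 0.05. With no composition factor the split was 37 higher and 11 lower. The balance was the other way with DESeq2 (202 higher, 315 lower), with limma-voom (328 and 511) and in edgeR without wild-type replicate 1 (470 and 843).

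Srebf2 was lower in every knockout library than in any wild-type library once library sizes were scaled by TMM. It measured 28.2, 34.6, 39.2 and 35.5 CPM (counts over TMM-scaled library size) in wild-type replicates 1 to 4 and 22.5, 22.0, 20.9 and 21.6 CPM in knockout replicates 1 to 4. The 4 knockout libraries lay close together, and the lowest wild-type library, replicate 1, was the nearest to them. The means were 34.4 ± 4.56 and 21.8 ± 0.67 CPM (SD, n = 4 each), a log2 fold change of -0.66, or 0.633 times the wild-type level. Groups that did not overlap, with the knockout lower, were found for 4.66% of all genes tested. The beta-cell marker share was also lower on average in the knockout libraries, and its part in the Srebf2 level was not tested. In bulk islet RNA, fewer cells that express the gene and less of its RNA per cell cannot be told apart.

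On the authors' RPM scale, which has no correction for composition, the Srebf2 groups overlapped. The levels were 12.8, 24.3, 22.7 and 24.5 RPM in wild-type replicates 1 to 4 and 10.3, 15.2, 8.94 and 13.6 RPM in knockout replicates 1 to 4. Wild-type replicate 1, with 26.2% of its counts on acinar markers, lay below knockout replicates 2 and 4. The means were 21.1 ± 5.56 and 12.0 ± 2.91 RPM. Leaving out each library in turn gave log2 fold changes of -0.76 (without wild-type replicate 1) to -0.60 (without wild-type replicate 3), and the acinar share as a covariate gave -0.63. Srebf2 was chosen by these same values, so these fits describe the difference and cannot test it.

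**Figure D1:**
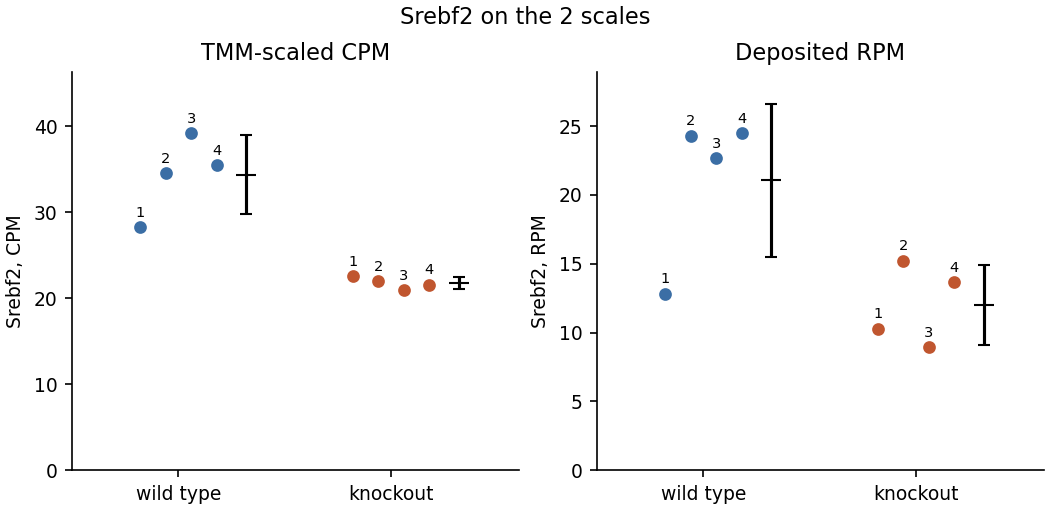
Srebf2 in each library (numbered by replicate) as TMM-scaled CPM on the left and as deposited RPM on the right, with the mean and SD of the 4 libraries of a group beside the points. The groups are apart on the left, from 20.9 to 22.5 CPM in knockout and from 28.2 CPM in wild type, while on the right wild-type replicate 1, at 12.8 RPM, lies inside the knockout range.

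The machinery that processes SREBP2 did not move past the threshold. Of 8 genes for escort, cleavage, retention and turnover, 0 passed FDR 0.05 in edgeR's test, beside 0.0147% of all genes. Their median log2 fold change was -0.059 against 0.0098 for all genes. The mean CPM of Scap was 30.4 ± 3.58 for wild-type and 29.0 ± 2.34 for knockout libraries, and that of the protease gene Mbtps1 was 33.0 ± 3.86 and 31.8 ± 2.02. The members of smallest p were Srebf1, Rnf145 and Insig2. Srebf1, which encodes the related factor of fatty acid synthesis, was at 13.4, 19.8, 20.2 and 17.96 CPM in wild-type replicates 1 to 4 and at 13.5, 17.3, 10.3 and 11.1 CPM in the knockout replicates. Its groups overlapped, and the log2 fold change came to -0.45, with a standard error (SE, the error given with every log2 fold change) of 0.18 (edgeR adjusted p = 0.228). Rnf145, a ubiquitin ligase gene for SCAP, had -0.21 ± 0.10 (edgeR adjusted p = 0.281). Its groups did not overlap, with the knockout lower, as for 4.66% of all genes tested. Insig2 had 0.26 ± 0.17 (edgeR adjusted p = 0.405).

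None of the 5 targets with counts passed the test, and the balance of their directions changed without knockout replicate 2. With all libraries the log2 fold changes ran from -0.21 to 0.56, 3 positive and 2 negative, with a median of 0.010, beside 0.0098 over all 13617 genes. Without that library, which holds hepatocyte RNA, 1 was positive (Insig1) and 4 were negative, with a median of -0.15 beside -0.0012 over all genes. With knockout replicate 2 kept in, Fdft1 also turned negative in some fits. It was -0.041 with limma-voom and -0.054 in edgeR without wild-type replicate 2. In edgeR's quasi-likelihood test 0 of the 5 passed FDR 0.05, beside 0.0147% of all genes. An unadjusted p under 0.05 was found for 0 of them, beside 18.7% of all genes. DESeq2 called 0 of them, beside 4.98% of genes with an adjusted p, and limma-voom 0, beside 6.16%. With limma-trend it was 0, beside 51 of 13617 genes. For none of the 5 were the groups free of overlap, as they were for 4.66% (knockout lower) and 3.68% (knockout higher) of all genes. With shares this small, 0 of 5 does not set the targets apart from other genes.

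**Figure D2:**
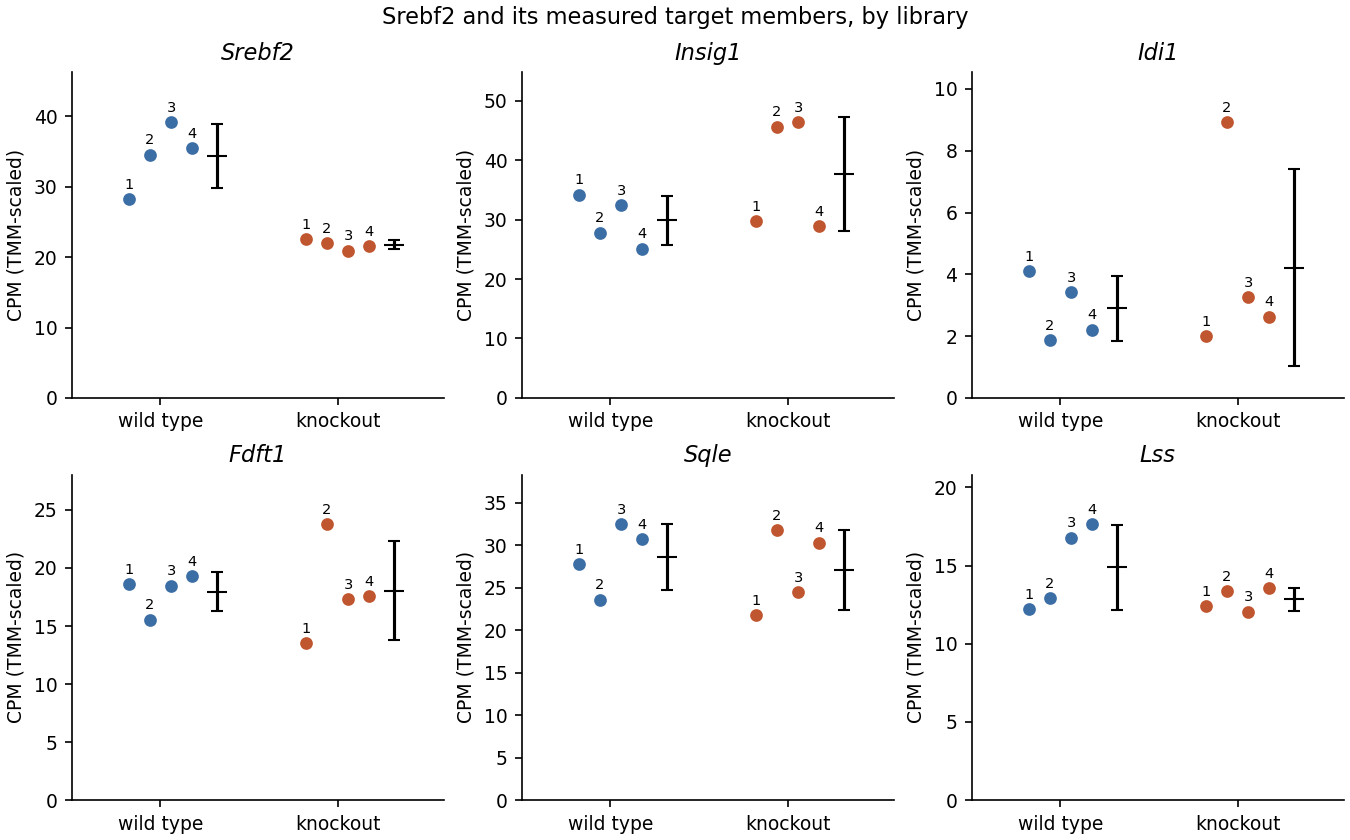
CPM of Srebf2 and of the 5 targets with counts in each of the 8 libraries, numbered by replicate, with the mean and SD of each group (n = 4) in black. Srebf2, chosen for its lower knockout level, has groups that do not overlap, as do 4.66% of all genes tested with the knockout lower. The groups of the 5 targets overlap, and knockout replicate 2 is the highest library for Idi1, at 8.93 CPM, and Fdft1, at 23.8 CPM.

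Hmgcs1, which makes HMG-CoA from acetoacetyl-CoA and acetyl-CoA at the head of the pathway, was listed at 0 in all 8 libraries. It was 1 of 3913 genes so listed, while the enzymes that act after it had counts. Whether its RNA was absent or its reads were not assigned cannot be told apart from the tables, so no level or fold change is given.

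Idi1, the isomerase that balances the 5-carbon isoprenoid units, was the scarcest member, with 34 to 274 counts per library. It measured 4.11, 1.87, 3.42 and 2.21 CPM in wild-type replicates 1 to 4 and 2.0, 8.93, 3.27 and 2.63 CPM in knockout replicates 1 to 4. Only knockout replicate 2 lay outside the wild-type range. For Idi1 the log2 fold change was 0.56 ± 0.50 (95% interval -0.60 to 1.72, edgeR adjusted p = 0.562). Without knockout replicate 2, the library with hepatocyte RNA, it was -0.13 (adjusted p = 0.845).

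Fdft1, squalene synthase, joins a pair of farnesyl units in the first step that is committed to sterols. It measured 18.6, 15.5, 18.5 and 19.3 CPM in the wild-type replicates and 13.5, 23.8, 17.3 and 17.5 CPM in the knockout replicates. The knockout held both the lowest and the highest library, replicates 1 and 2. For Fdft1 it was 0.010 ± 0.15 on the log2 scale (95% interval -0.32 to 0.34, edgeR adjusted p = 0.978), and -0.15 without knockout replicate 2. Fdft1 overlaps Ctsb on the other strand in the GENCODE M21 annotation, and its deposited counts were not whole in all 8 libraries, so its level is uncertain.

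Sqle, squalene epoxidase, is a rate-limiting enzyme of the later pathway. It measured 27.8, 23.6, 32.5 and 30.7 CPM in wild-type replicates 1 to 4 and 21.8, 31.8, 24.5 and 30.3 CPM in knockout replicates 1 to 4. Both groups covered nearly the same range. Between genotypes the log2 fold change was -0.078 ± 0.14 (edgeR adjusted p = 0.786), with a 95% interval of -0.38 to 0.23.

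Lss, lanosterol synthase, closes the sterol rings. It measured 12.2, 12.9, 16.8 and 17.6 CPM in the wild-type replicates and 12.4, 13.4, 12.1 and 13.6 CPM in the knockout replicates. Wild-type replicates 3 and 4 lay above every knockout library and wild-type replicates 1 and 2 lay among them. The log2 fold change was -0.21 ± 0.13 (95% interval -0.50 to 0.077, edgeR adjusted p = 0.387). Leaving out wild-type replicate 1 gave -0.31 and leaving out wild-type replicate 4 gave -0.12, the extremes of the 8 such fits. Lss overlaps an antisense gene in GENCODE M21, strand use in counting is not given in the sources used here, and 7 of its 8 counts were not whole.

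Insig1, the sterol-sensing protein that retains SCAP and whose own gene SREBP2 activates, was the one target with a higher mean that held without knockout replicate 2. It measured 34.2, 27.8, 32.4 and 25.1 CPM in wild-type replicates 1 to 4 and 29.8, 45.6, 46.4 and 28.9 CPM in knockout replicates 1 to 4. Knockout replicates 2 and 3 lay above all wild-type libraries, and replicates 1 and 4 lay inside the wild-type range. The means were 29.9 ± 4.17 and 37.7 ± 9.65 CPM. The log2 fold change was 0.34 ± 0.18 (95% interval -0.056 to 0.73, edgeR adjusted p = 0.321), and the extremes with 1 library left out were 0.21 (knockout replicate 3) and 0.44 (knockout replicate 4). Without knockout replicate 2 it was 0.23. Wild-type replicate 4 and knockout replicates 1 and 4, the lowest Insig1 libraries of their groups, were also the 3 libraries with high Xist, the X-inactivation RNA (11458 to 20935 counts, against 51 to 158 in the other 5). With high or low Xist as a covariate the log2 fold change was 0.43 (edgeR adjusted p = 0.122).

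Spread within the knockout group differed between the members, and for Idi1 and Fdft1 much of it came with replicate 2. The coefficient of variation of CPM over the 4 knockout libraries was 3.09% for Srebf2 and 5.66% for Lss, against 17.5% for Sqle, 23.5% for Fdft1, 25.6% for Insig1 and 75.8% for Idi1. Over the 3 knockout libraries other than replicate 2 it was 3.68% for Srebf2, 6.18% for Lss, 17.1% for Sqle, 14% for Fdft1, 28.2% for Insig1 and 24.1% for Idi1. In wild type it ran from 9.23% for Fdft1 to 36.0% for Idi1.

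Per kilobase of exon in GENCODE M21, Insig1 was the most abundant member in wild type, at 9.66 ± 1.35 CPM per kb. Sqle followed at 5.16 ± 0.70, Srebf2 at 4.78 ± 0.63 and Fdft1 at 4.25 ± 0.39 CPM per kb, and the ranges of these neighbours overlapped. Below a gap with no overlap, Lss stood at 1.38 ± 0.25 and Idi1 at 0.828 ± 0.30 CPM per kb, also with overlapping ranges. In the knockout Insig1 was at 12.2 ± 3.12, Sqle at 4.88 ± 0.86, Fdft1 at 4.27 ± 1.00 and Srebf2 at 3.03 ± 0.094 CPM per kb, with Idi1 (1.20 ± 0.91) and Lss (1.19 ± 0.067) overlapping at the bottom. By this length the highest knockout library for Srebf2, at 3.14 CPM per kb, lay below the lowest for Fdft1, at 3.20. With the longest transcript as the length, Srebf2 (6.77) stood above Sqle (6.41) in wild type. In knockout the ranges of Srebf2 and Fdft1 then overlapped, with means of 4.29 and 4.88 CPM per kb.

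The count of a target divided by the count of Srebf2 in the same library needs no scaling between libraries. For Insig1 this ratio was 1.21, 0.804, 0.826 and 0.708 in the wild-type replicates and 1.32, 2.07, 2.22 and 1.34 in the knockout replicates. For Lss it was 0.433, 0.374, 0.428 and 0.498 in wild type and 0.551, 0.607, 0.575 and 0.628 in knockout. For Sqle the means were 0.840 ± 0.12 and 1.25 ± 0.22, with knockout replicate 1 (0.966) just below wild-type replicate 1 (0.984). The ratio was higher in every knockout library for Insig1 and Lss, and overlapped for Idi1, Fdft1 and Sqle. Since Srebf2 was chosen for its low knockout level, the ratio of 53.5% of all genes to Srebf2 was likewise higher in the knockout without overlap, and 2 of 5 is below that share.

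The balance of directions in the rest of the synthesis pathway also changed without knockout replicate 2. Of 15 enzymes outside the members 0 passed FDR 0.05 in edgeR's test, beside 0.0147% of all genes. Together with Idi1, Fdft1, Sqle and Lss the 19 enzymes had 13 positive and 6 negative log2 fold changes with a median of 0.16. Knockout replicate 2 was the highest of all 8 libraries for 15 of the 19 enzymes, or 78.9%, against 14.7% of all genes. Knockout replicate 1 was the lowest of all 8 for 10 of the 19 enzymes, and wild-type replicate 2 for 5. The median enzyme of knockout replicate 2 stood 0.95 log2 units above the wild-type mean. Knockout replicates 1, 3 and 4 stood at -0.41, -0.080 and -0.082 and the wild-type libraries between -0.31 and 0.19. Without knockout replicate 2, and with the low replicate 1 kept, the 19 enzymes had 3 positive and 16 negative values. Their median was then -0.17, beside -0.0012 over all genes. The part of hepatocyte RNA in the levels of knockout replicate 2 was not tested.

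Single enzymes differed in how far that library stood out. Sc5d, the sterol desaturase, was at 7.41, 33.3, 10.2 and 9.38 CPM in the knockout replicates and at 6.80 to 10.8 CPM in wild type. The Sc5d log2 fold change was 0.73 ± 0.52 (adjusted p = 0.473), against -0.021 without that library. Hsd17b7, a sterol ketoreductase, had 0.60 ± 0.38 (adjusted p = 0.395), and 0.088 without it.

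**Figure D3:**
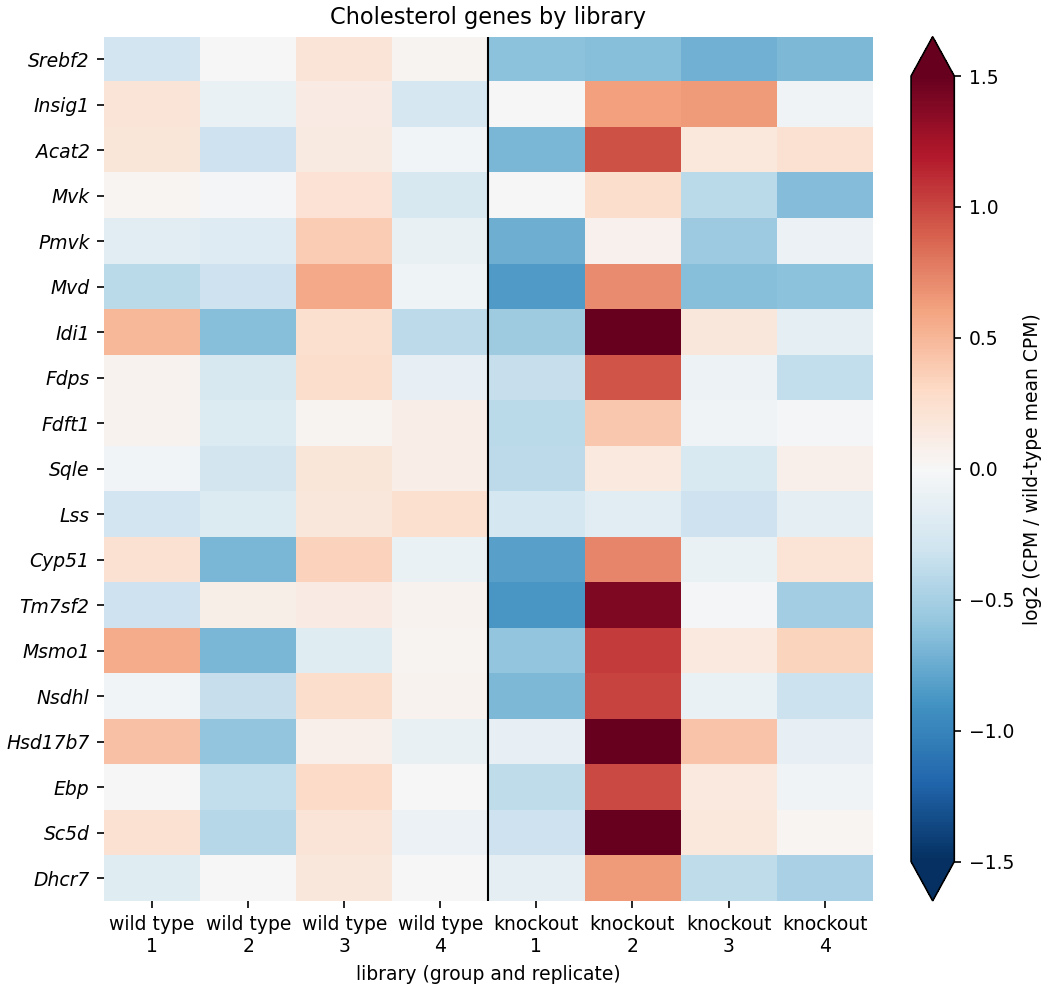
Level of Srebf2, Insig1 and enzymes of cholesterol synthesis in pathway order, by library, as log2 of CPM over the wild-type mean CPM (red above it, blue below it, colours end at 1.5 log2 units either way). The column of knockout replicate 2 is red for every enzyme drawn except Lss, and darkest for Sc5d (33.3 CPM) and Idi1 (8.93 CPM). The Srebf2 row is blue in all 4 knockout libraries.

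**Figure D4:**
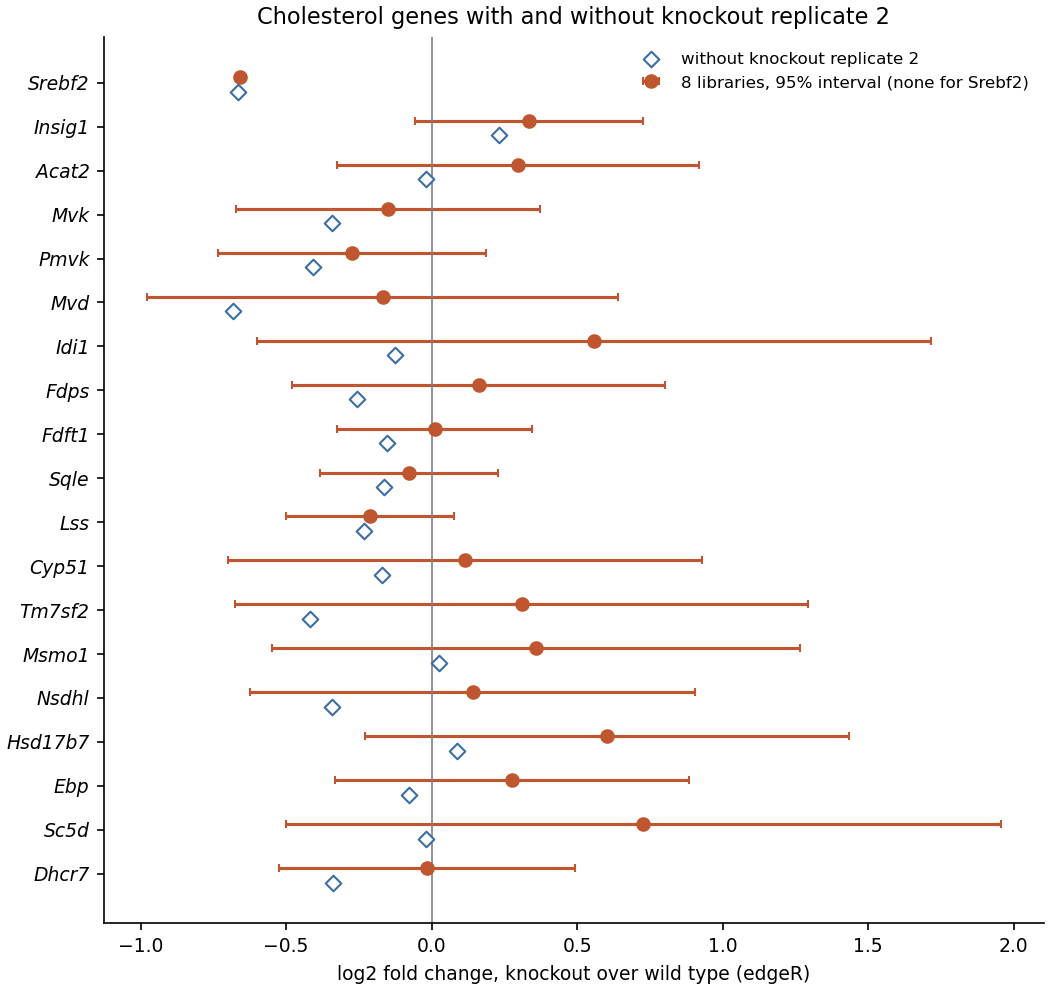
Log2 fold change of knockout over wild type from edgeR for the same genes, over 8 libraries with 95% intervals (filled, none drawn for Srebf2) and without knockout replicate 2 (open). Idi1 and Sc5d are positive with all libraries and negative without that one, while Insig1 is at 0.34 and 0.23. Srebf2, chosen for its lower knockout level in these libraries, is at -0.66 and -0.67.

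Among genes known as further SREBP2 targets, in uptake, transport and acyl-CoA supply, 8 of 9 were tested. In edgeR's test 0 of them passed FDR 0.05, beside 0.0147% of all genes. The median log2 fold change was -0.070, with 4 positive and 4 negative values. Without knockout replicate 2, the library with hepatocyte RNA, 1 value was positive and 7 were negative, with a median of -0.29. Aacs, which encodes acetoacetyl-CoA synthetase, measured 6.42, 9.995, 9.16 and 7.93 CPM in wild-type replicates 1 to 4 and 5.29, 7.40, 5.04 and 5.40 CPM in knockout replicates 1 to 4. The groups overlapped through knockout replicate 2, which lay above wild-type replicate 1. The difference was -0.53 ± 0.17 on the log2 scale (95% interval -0.90 to -0.16, edgeR adjusted p = 0.173).

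Aacs had an adjusted p of 0.0815 with DESeq2, where 4.98% of genes with an adjusted p were called. It passed FDR 0.05 with limma-voom and library weights (0.0456), where 6.16% were called, and in edgeR without wild-type replicate 1 (0.0312), as did 9.46% of all genes. The adjusted p of Aacs over all alternatives ran from 0.0110 to 0.939. Without wild-type replicate 1 and knockout replicate 2 together, 4 of the pathway genes outside the members passed, beside 9.47% of all genes. They included Srebf1 (log2 fold change -0.74 ± 0.13, adjusted p = 0.00945), Aacs (-0.78 ± 0.14, 0.0110) and Dhdds (-0.46 ± 0.12, 0.0323), these 3 all lower. The libraries left in that fit had acinar shares of 2.03 to 14.3% in wild type and 17.6 to 27.8% in knockout. Genotype and acinar share therefore cannot be told apart there. Over all 8 libraries, the acinar share as a covariate gave -0.31 for Srebf1, -0.38 for Aacs and -0.19 for Dhdds. Without the covariate they were -0.45, -0.53 and -0.25. The 5 targets had 0 calls in each of these fits.

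Over all 5 lists, 50 of 53 pathway genes outside the members were tested, 8 had an unadjusted p under 0.05, and 0 passed FDR 0.05 with edgeR, 1 with DESeq2, 2 with limma-voom and 0 with limma-trend. These were 16.0% of the 50 genes with an unadjusted p under 0.05, against 18.7% of all genes. With DESeq2 2.0% of the 50 were called, against 4.98% of the genes with an adjusted p, which some of the 50 lacked. With limma-voom it was 4.0% against 6.16% of all genes. No share lay above the one beside it, and the calls were 1 and 2 genes only. The efflux and esterification genes had 6 positive and 4 negative values of 10 tested, with a median of 0.14, against 4 positive and 6 negative and a median of -0.026 without knockout replicate 2. Abcg4, a sterol exporter gene near the detection limit, measured 0.652, 0.692, 0.415 and 0.644 CPM in the wild-type replicates against 0.235, 0.228, 0.221 and 0.289 CPM in the knockout replicates. Its groups did not overlap, with the knockout lower, as for 4.66% of all genes tested. The log2 difference was -1.28 ± 0.34 (edgeR adjusted p = 0.144). Abcg4 passed the low-count filter through the wild-type libraries only, which favours a lower knockout value and groups without overlap. These values are therefore a description and no support for a difference. With no low-count filter the log2 difference was -1.29 (edgeR adjusted p = 0.180). The exporter gene Abcg1 had -0.25 ± 0.11 (adjusted p = 0.256) and the oxysterol receptor gene Nr1h2 -0.23 ± 0.11 (adjusted p = 0.284).

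In the isoprenoid branch, which uses the same early intermediates for dolichol, ubiquinone and protein prenylation, 6 of 9 genes had positive values. The median of the 9 was 0.11, and 0 passed FDR 0.05 in edgeR's test, beside 0.0147% of all genes. Nus1, a subunit gene of the dolichol-making prenyltransferase, measured 12.6, 10.3, 11.6 and 12.3 CPM in the wild-type replicates against 12.9, 13.9, 14.2 and 15.8 CPM in the knockout replicates, without overlap. On the log2 scale this was 0.28 ± 0.11 (edgeR adjusted p = 0.212). Its partner gene Dhdds had -0.25 ± 0.14 (adjusted p = 0.353), and Pggt1b, a protein prenyltransferase subunit gene, had 0.33 ± 0.15 (adjusted p = 0.255) without overlap. Groups not overlapping with the knockout higher were found for 3.68% of all genes.

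Srebf2 and its targets did not all rank the libraries of a genotype alike. In wild type, replicate 1 was the lowest library for Srebf2 and Lss but the highest for Insig1 and Idi1. Wild-type replicate 3 was the highest for both Srebf2 and Sqle. In knockout, replicate 1 was the highest library for Srebf2 and the lowest for Idi1, Fdft1 and Sqle. Knockout replicate 3 was the lowest for both Srebf2 and Lss. The 4 knockout libraries spanned only 20.9 to 22.5 CPM of Srebf2, on 383 to 675 counts, so their order for Srebf2 is uncertain. After subtraction of each genotype mean and standardising, the profile of Srebf2 over the 8 libraries differed from the mean profile of the 5 targets by 1.07 on average, against a median of 1.15 for Srebf2 and all 5103 genes of at least 10 CPM. The genes closest to Srebf2 by this measure were Arf3 (0.224), Esrp1 (0.237), Ngfrap1 (0.255), Lgals3bp (0.256) and Ap1s1 (0.257), and those closest to the target mean were Akr1a1 (0.170), Kdelr2 (0.215), Gfpt1 (0.231), Dnaja1 (0.233) and Pdia3 (0.266). The points share library depth and cell mixture, and no test was made.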

How the data were processed

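Islet RNA was sequenced from 4 mice and in 4 libraries per genotype. Per the labels' protocols, TRIZOL RNA was treated with DNase and amplified with the SeqPlex kit. The submitters' processing notes name STAR 2.4.1, Partek and mm9; the sources used here do not give the role of each, the annotation or the strand setting. The authors deposited estimated counts per gene (9.98 to 12.4% not whole within 0.01) and RPM, which equal those counts scaled by 1 constant per library plus an offset of 0.0001; the assigned counts make up 52.5 to 60.9% of the totals that the RPM are scaled to.

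Counts were rounded and tested with edgeR 4.0.16 (TMM, filterByExpr, robust quasi-likelihood F-test, Benjamini-Hochberg over 13617 genes, FDR 0.05) in R 4.3.3, and checked on simulated data. Standard errors come from the F statistic, and p-values measure the spread between these mice. The common biological coefficient of variation was 0.239. No pair of libraries of one group was a copy (smallest chi-square per degree of freedom 41.6). The floor for a count of 0 covers counting error only. Alternatives used DESeq2 1.42.0, limma 3.58.1 (limma-trend on log2 of RPM plus 1), other scalings, covariates, a replicate block and left-out libraries; leaving out 2 libraries together was added after seeing the data.

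Members and lists were chosen with earlier results of these data known. Named genes are the members, the 3 genes of smallest p in each list where none passes, and the nearest 5 profiles, except that some genes which count in the lists are not reported here; others are marked or named as examples. Lengths came from GENCODE M21 and promoters from RefSeq GRCm38.p6, neither of them mm9.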

Additional observations from a re-analysis of the deposited data

Results flagged for a closer look

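Among 68 groups of 4 libraries examined for a single library far from the other 3, 5 stood out, where chance alone flags about 1 in 20, and each time the library was knockout replicate 2 as the highest of its group. It held 33.3 CPM of Sc5d, 7.40 CPM of Aacs, 33.1 CPM of Dhdds and 305 CPM of Apoe, the apolipoprotein gene that hepatocytes and macrophages express, which is named after its values were seen. The 8 hepatocyte markers summed to 6275 unscaled CPM in it. Apoe was at 28.5 to 39.9 CPM in the other knockout libraries, and its log2 fold change was 1.58 with all libraries and 0.042 without this one. The part of hepatocyte RNA in these values was not tested.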

How the results depend on the processing

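The number of targets past FDR 0.05 was 0 in every alternative, at FDR 0.10 too, and their median log2 fold change ran from -0.15 to 0.11. The count over all genes, 2, was 48 with no composition factor, which moved the median of all genes to -0.11, 517 with DESeq2, 839 with limma-voom and 51 with limma-trend. It was 2 to 1313 when each library was left out (1313 without wild-type replicate 1, 5 without knockout replicate 4) and 1296 without wild-type replicate 1 and knockout replicate 2. Pathway genes called outside the members, 0, were then 0 to 2 and 4, and 1 with DESeq2 and 2 with limma-voom. Fdft1, at 0.010, turned to -0.044 with no composition factor, -0.00082 with no filter, -0.041 with limma-voom, -0.14 with limma-trend, -0.014 with the replicate block, -0.054 and -0.15 without wild-type replicate 2 and knockout replicate 2, and -0.13 without both doubted libraries. Without knockout replicate 1 the values of Idi1, Fdft1 and Sc5d were at their highest, 0.77, 0.11 and 0.93. Without knockout replicate 2 Idi1 was -0.13, Sqle -0.16 and Sc5d -0.021. Sqle was 6.8e-05 without knockout replicate 1. Apart from the removal of a library, the cause of these changes was not tested.

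With the replicate block 2 genes passed. Same-numbered libraries had correlations of deviations of 0.038 to 0.21, and 3 of 4 wild-type libraries matched their own number best. Replicate 1 did not (0.038), and since not every pair was over 0.1 the numbers were not taken as pairs. Among the members with counts Idi1 had the fewest, with 34 in its lowest library.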

Other observations

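Tmem97, a sterol-regulated membrane protein gene on the uptake list, is named after its values were seen. It was at 70.9, 5.66, 42.2 and 15.9 CPM in wild-type replicates 1 to 4 and at 38.2, 14.2, 48.2 and 20.9 CPM in knockout replicates 1 to 4. The acinar markers took 26.2, 2.03, 14.3 and 4.93% of counts in the same wild-type libraries and 21.9, 5.31, 27.8 and 17.6% in the knockout libraries. The 5 libraries with the most acinar RNA were also the 5 highest for Tmem97, and wild-type replicate 2 was the lowest for both. The log2 fold change between genotypes was -0.15 ± 0.81 (edgeR adjusted p = 0.935). The part of acinar RNA in this level was not tested. Mir33, the microRNA gene in an intron of Srebf2, was listed at 0 in all 8 libraries.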
